A study of Drosophila melanogaster with 2 samples.

Results

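Mediator is the multi-subunit coactivator that carries signals from DNA-bound transcription factors to RNA polymerase II, and the genes of its subunits were examined here for peaks of the ecdysone-response factor Broad. The members were defined by a rule on gene symbols, set with earlier results of these data known. They are protein-coding genes whose symbol starts with MED and a digit, together with kto, skd, CycC and Cdk8, which encode the kinase module. The rule gave 29 genes of 13968 protein-coding genes on the 7 chromosome arms used. The chromatin came from whole wandering Drosophila melanogaster larvae of the last instar, males and females pooled, of the strain br-rj-GFP. These larvae carry a transgene whose br-RJ product has GFP at its C-terminal end, and an antibody against GFP precipitated the chromatin. Only the tagged product of this transgenic line was therefore measured, and the tissues of the larva cannot be told apart. The labels give 2 biological replicates of this 1 group, with no other genotype or treatment, so the data hold no comparison between conditions.

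Mediator is usually divided into a head, a middle and a tail, held together by a long backbone subunit, and a kinase module that binds the rest reversibly. The head and middle contact RNA polymerase II, the tail receives many activators, and the kinase module, made of MED12, MED13, a cyclin and its kinase, can keep the polymerase from binding. In flies the MED12 and MED13 genes are kto and skd, known for their roles in the patterning of eye and wing discs. Subunits of Mediator are also known to act in ecdysone responses. Cdk8 with Cyclin C promotes transcription driven by the ecdysone receptor, and MED24 is needed in larval salivary glands for their normal answer to the hormone.

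Of the 29 Mediator genes, 9 (31.0%) had a summit of the authors' optimal set whose distance to an annotated start of transcription was at most 1000 bp, against 24.3% of all protein-coding genes. The optimal set holds the 6635 peaks kept by the authors after comparing replicates for irreproducible discovery rate (IDR), and a gene with such a summit is called bound below. At the share of all coding genes, 7.06 of 29 genes would be bound, so the count was near the background and is no result about Mediator as a class. The 9 genes were MED30, MED6 and MED17 of the head, MED27, MED16 and MED15 of the tail, MED7 and MED4 of the middle, and skd of the kinase module. Each module thus had bound and unbound members, with 3 of 9 genes in the head, 2 of 10 in the middle, 3 of 6 in the tail and 1 of 4 in the kinase module.

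Both of the strongest peaks stood in stretches, of 273 and 277 bp, between 2 start sites that face away from each other. Those of MED30 and MED27 are shown because they carry the 2 strongest peaks of the group, and that of MED7 because it is as long and its peak is weaker and lies at the Mediator end. Each is read 5′ to 3′ on the strand of the Mediator gene, from the base after the neighbour's start to the base before the Mediator start, on build dm6. Capitals mark matches on either strand to 7 sequences chosen for the search and 1 added later, all described further on.
MED30 and Rev1, chr3L:654090-654362, minus strand: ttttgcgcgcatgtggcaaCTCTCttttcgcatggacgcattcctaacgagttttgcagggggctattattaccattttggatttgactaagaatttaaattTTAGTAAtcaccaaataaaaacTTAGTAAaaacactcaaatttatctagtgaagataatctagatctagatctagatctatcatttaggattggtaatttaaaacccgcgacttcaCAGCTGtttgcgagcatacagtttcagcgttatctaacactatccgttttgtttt
MED27 and elm, chr3R:5654862-5655138, plus strand: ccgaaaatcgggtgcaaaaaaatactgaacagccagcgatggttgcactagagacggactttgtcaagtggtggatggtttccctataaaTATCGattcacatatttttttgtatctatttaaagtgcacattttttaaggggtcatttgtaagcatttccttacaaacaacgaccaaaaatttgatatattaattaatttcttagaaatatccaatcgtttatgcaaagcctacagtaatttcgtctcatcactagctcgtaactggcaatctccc
MED7 and Cap-H2, chr3R:10761033-10761309, minus strand: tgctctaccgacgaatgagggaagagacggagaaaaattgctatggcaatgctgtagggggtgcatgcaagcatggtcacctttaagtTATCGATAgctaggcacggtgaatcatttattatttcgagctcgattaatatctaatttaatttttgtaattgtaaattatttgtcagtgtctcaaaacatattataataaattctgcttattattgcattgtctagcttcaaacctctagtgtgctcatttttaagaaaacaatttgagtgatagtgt
The summit of MED30 lay at base 86 of its stretch, that of MED27 at base 133 and that of MED7 at base 237. In the 101 bp around each summit the GC content was 29.7% at MED30, 27.7% at MED27 and 29.7% at MED7. In the MED30 stretch the capitals mark the E-box CAGCTG, and on the other strand they mark 1 match to GAGAG. The remaining capitals there are 2 matches to the later addition TTAGTAA. The match in the MED27 stretch is to CGATA, and the one in the MED7 stretch is to TATCGATA.

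MED30, a head subunit gene, had the strongest peak of the group, with a signal of 612 and rank 261 of 6635. In the lists of the replicates the summit had signals of 303 in replicate 1 and 310 in replicate 2. The signal is the authors' value for each peak, on a scale that the sources used here do not state, and values of the replicates are not on the scale of the list called on both together. Of all bound protein-coding genes, 6.71% had a stronger peak. The summit (chr3L:654072-654420) lay 188 bp upstream of MED30 and 86 bp from the start of Rev1, which encodes a translesion DNA polymerase, so it was closer to the neighbour.

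MED27, of the tail, followed with 471 and rank 458, and with 241 and 229 in replicates 1 and 2. Its summit (chr3R:5654831-5655180) was 145 bp from its own start and 133 bp from that of elm, nearly midway. MED30 and MED27 stood above the other bound members in both replicates, where the next highest values were 125 and 134. A share of 11.3% of bound coding genes had a higher signal than MED27.

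**Figure D1:**
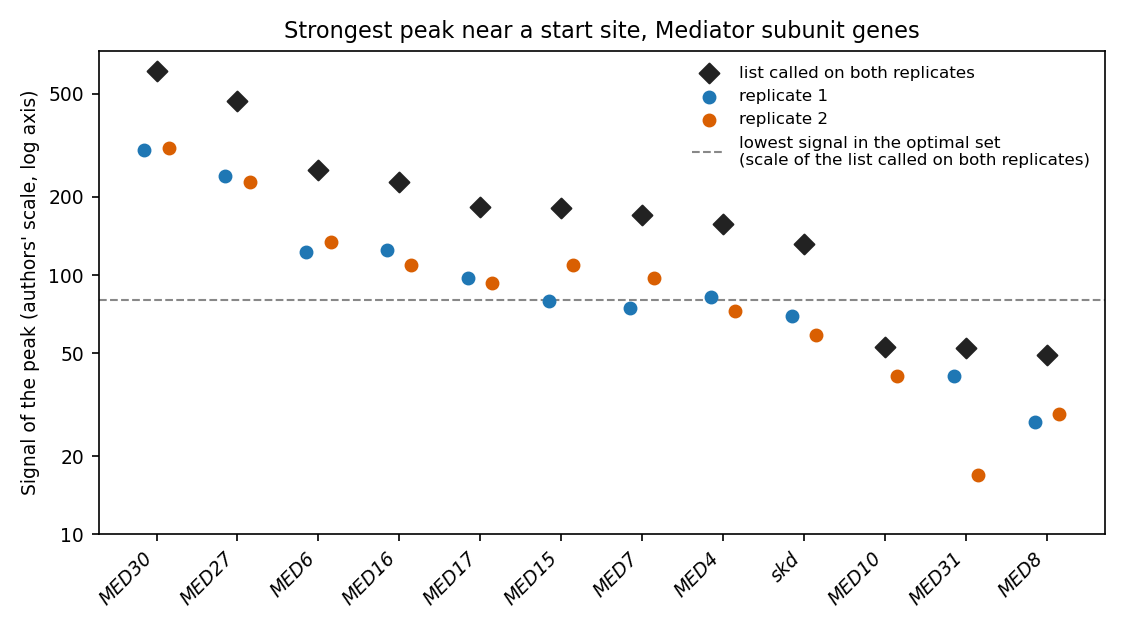
Signal of the strongest peak within 1000 bp of a start site for the 12 Mediator genes that have one (log axis, authors' scale). Diamonds are the list called on both replicates and circles the nearest summit within 200 bp in each replicate's own list; 9 diamonds lie above the dashed line at the lowest signal of the optimal set, 80.0, and those of MED10, MED31 and MED8 below it.

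MED6 encodes a head subunit conserved from yeast to mammals. It was the only bound member with 2 summits of similar signal, 254 (123 and 134 in the replicates) and 237 (125 and 118). Both fell in annotated 5′ untranslated exons of MED6, which has 5 start sites, at 0 and 45 bp from the closest of them. The first summit also lay 19 bp from the start of Naa80, an actin N-acetyltransferase gene on the other strand that begins inside the MED6 start region. Signals of the replicates differed in opposite directions at the 2 summits, so neither summit was the higher one in both.

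MED16, of the tail, had a signal of 229 (rank 1574) with 124 and 109 in replicates 1 and 2. Its summit on arm 2R (chr2R:22182993-22183162) was 77 bp upstream of its start and 182 bp from CG11170, and MED16 was the nearest gene. The same was true of MED17 with CG12321 by a small margin, at 179 and 186 bp. MED17, the scaffold subunit of the head, had a signal of 184 (rank 2194). Replicate 2 placed that summit within 5 bp and gave it 93.2, while the nearest summit of replicate 1 was 103 bp away, on the side of MED17, with 97.7. A weaker peak of the list called on both replicates, with 41.3, had its summit 23 bp inside MED17. The replicates thus had like signals upstream of MED17 with summits at different places.

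The other 4 bound members had signals of 181 to 132. MED15, the tail subunit known in yeast as Gal11 and contacted by many activators, had 181 in the list called on both replicates, 79.6 in replicate 1 and 110 in replicate 2. MED7, of the middle, had 170, with 74.9 and 97.6. MED4, also of the middle, had 157, with 82.7 and 72.9. For skd, whose MED13 product joins the kinase module to the rest of Mediator, the values were 132, 69.4 and 58.5. MED15 and MED7 were higher in replicate 2, MED4 and skd in replicate 1. MED15 was above MED7 in both replicates, and skd was below MED4 in both. The order of MED17 and MED15 changed between the replicates, as did that of MED7 and MED4 and that of MED6 and MED16.

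The summits of MED17, MED15 and skd are shown next, as windows of at most 50 bp to either side, because they differ in how close they lie to the Mediator start. The window of skd stops where the transcript of its neighbour begins.
MED17, chr3R:18188843-18188943, plus strand: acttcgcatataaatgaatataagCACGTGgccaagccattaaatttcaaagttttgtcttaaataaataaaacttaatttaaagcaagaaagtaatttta
MED15, chr2L:472360-472460, plus strand: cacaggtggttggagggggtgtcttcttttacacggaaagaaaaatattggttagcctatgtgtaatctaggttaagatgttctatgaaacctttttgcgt
skd, chr3L:21027830-21027914, minus strand: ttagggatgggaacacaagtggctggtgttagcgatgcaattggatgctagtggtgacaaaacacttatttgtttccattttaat
The summit of MED15 was 603 bp upstream of its start and 210 bp from that of CG4297, the largest distance to a Mediator start among the 9 strongest summits. At skd the strongest summit was 446 bp upstream and only 35 bp from the start of Pdss2, a gene of coenzyme Q synthesis. MED4 differed from all of these. Its summit (chr3L:7250514-7250943), 202 bp upstream, lay in a 3′ untranslated exon of CG14830 and 89 bp from the start of an antisense RNA, with no divergent coding gene within 1000 bp.

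The replicates differed no more at Mediator genes than the spread over all bound genes. Of the 9 strongest summits, 8 (88.9%) had a summit within 100 bp in both replicate lists, against 94.0% over all 3399 bound coding genes, and MED17 was the exception. The log2 ratio of replicate 2 to replicate 1 ran from -0.25 at skd to 0.46 at MED15, with an SD of 0.27 over 8 genes. Over the 3194 matched coding genes its SD was 0.45. Replicate 2 was higher at 4 of the 8. Taking the 6635 strongest peaks of either replicate in place of the optimal set called the same 9 genes.

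The median signal of the 9 strongest peaks was 184, beside 164 over all bound coding genes, and 7 of the 9 were above that median. The 2 below the median were MED4 and skd. Most members therefore lay in the middle of the distribution, with MED30 and MED27 in its upper part.

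**Figure D2:**
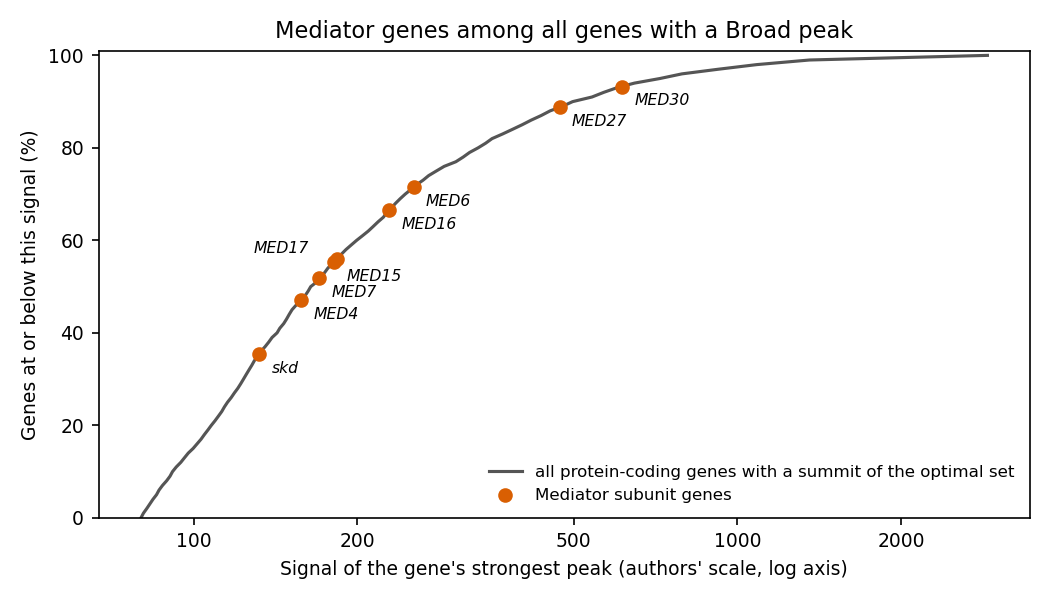
Share of bound protein-coding genes at or below each signal of their strongest peak (grey line, log axis, authors' scale), with the 9 bound Mediator genes as points. skd and MED4 sit below the median of 164, and MED27 (471) and MED30 (612) lie far to the right of the others.

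Most Mediator genes, bound or not, share their start region with a gene on the other strand. A divergent coding gene, on the other strand with its start within 1000 bp upstream, was found at 21 of the 29 Mediator genes (72.4%), against 36.2% of all coding genes. Of these 21, 8 (38.1%) were bound, near the 36.7% of all coding genes in that arrangement. Of the 8 without such a neighbour, only MED4 was bound (12.5%), against 17.3% of all such coding genes. Applied to the 21 and 8 Mediator genes, the shares of all coding genes in each arrangement would give 9.10 bound genes, beside the 9 observed. Of 24 members with a single annotated start 7 (29.2%) were bound, against 17.5% of coding genes with a single start.

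In 7 of the 8 bound divergent pairs the strongest summit lay strictly between the facing starts, as it did in 70.5% of the 1855 bound divergent coding genes. At MED6 the summit was on the base of a MED6 start. The peak was nearest to the Mediator gene's own start in 5 of the 9 bound members (MED16, MED4, MED6, MED7 and MED17), beside 73.6% of all bound coding genes. It was nearest to the partner at MED30, MED27, MED15 and skd. A divergent coding start was present at 88.9% of bound members, against 54.6% of bound coding genes, and the 73.6% was not split by arrangement. Which gene of a pair, if either, responds to Broad was not measured. When each summit was given only to the gene of the nearest start, 6 members were bound, since skd kept its weaker summit, against 18.8% of coding genes.

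Spacing differed between bound and unbound Mediator pairs. The facing starts of the 8 bound pairs were 19 to 813 bp apart with a median of 278 bp, and those of the 13 unbound pairs 26 to 859 bp apart with a median of 115 bp. With a limit of 200 bp, chosen after the values were seen, 1 of 8 bound pairs (MED6 with Naa80) and 9 of 13 unbound pairs were closer. Over all divergent coding genes the medians were 297 bp for bound and 299 bp for unbound genes, and 26.3% and 31.9% were closer than 200 bp. The medians over all divergent coding genes thus differed little, and the difference among Mediator genes was not tested.

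**Figure D3:**
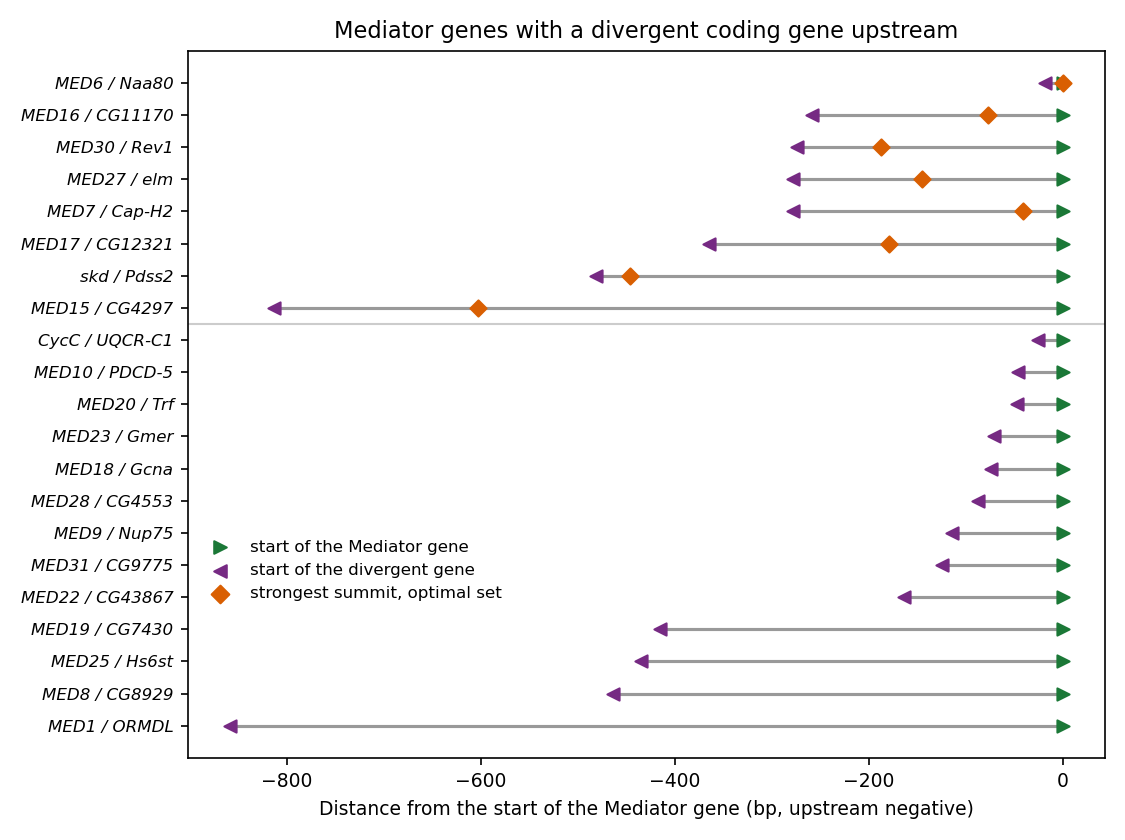
Distance between the start of each of 21 Mediator genes (green, at 0) and the start of its divergent coding neighbour (purple), in bp, with the strongest summit of the optimal set (orange). In 7 of the upper 8 pairs the summit lies between the starts, and at MED6 it is on the MED6 start; 9 of the lower 13 pairs, which have no such summit, span under 200 bp.

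For contrast, 4 pairs are shown whose stretches are short and whose Mediator gene had no summit near its start in any list. They are read as above.
MED28 and CG4553, chr3R:25476916-25477002, plus strand: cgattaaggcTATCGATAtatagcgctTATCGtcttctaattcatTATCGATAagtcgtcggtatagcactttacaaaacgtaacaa
MED18 and Gcna, chrX:1865836-1865908, plus strand: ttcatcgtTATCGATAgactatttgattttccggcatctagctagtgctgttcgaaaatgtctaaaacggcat
MED20 and Trf, chr2L:8072849-8072894, minus strand: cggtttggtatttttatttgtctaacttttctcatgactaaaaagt
CycC and UQCR-C1, chr3R:14890206-14890230, minus strand: gccagtCAGCTGttcgtggaaaata
MED28 and MED18 hold TATCGATA, known as the DNA replication-related element to which the factor Dref binds, MED28 at 2 places. CycC holds CAGCTG, an E-box, and MED20 has no match. MED9 and MED22, whose starts lie 115 and 164 bp from those of their partners, also had no summit near a start in any list. Their stretches are not shown and hold no TATCGATA. Over the whole stretch between the starts, TATCGATA also occurs in the bound pairs of MED7 and MED17 and in the unbound pairs of MED8 and MED25. In windows of 101 bp on the midpoint it was found in 1 of 8 bound and 2 of 13 unbound Mediator pairs, and in 4.87% of 5052 divergent coding genes.

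All sequences were searched on both strands. The first was TATCGATA, the element of Dref. Contained in it is CGATA, known from the boundary factor BEAF-32. A further one was GGTCACAC, part of the core promoter element called motif 1. The E-boxes searched were CAGCTG and the palindrome known from basic helix-loop-helix factors, CACGTG. For the chromatin factor named after such repeats, GAGAG was included. The last, TAAACTA, was taken from an A-rich sequence reported for a Broad isoform. In windows of 101 bp on the 11 summits of bound members, CGATA occurred at MED27 and CACGTG at MED17, and the other 5 sequences were not found. Shares over all 3336 promoter peaks, those within 1000 bp of a coding start, were 19.9% for CGATA and 1.14% for CACGTG. They were 2.55% for TATCGATA, 1.29% for GGTCACAC, 6.62% for CAGCTG, 14.7% for GAGAG and 2.52% for TAAACTA. In windows of the same length on the starts of all coding genes the shares were 5.56% for TATCGATA, 25.8% for CGATA, 5.58% for GGTCACAC, 9.33% for CAGCTG, 1.98% for CACGTG, 11.5% for GAGAG and 2.04% for TAAACTA. A further sequence, TTAGTAA, was added after the sequences had been seen. It occurred in the window of MED30, in 1.71% of promoter peaks and in 1.22% of gene starts. With 11 windows, these counts describe the members and do not separate them from other promoter peaks.

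Most member summits were rich in A and T. The GC content of the 11 windows ran from 24.8% at MED17 to 58.4% at the first summit of MED6, with a median of 31.7%. The median was 38.6% over all promoter peaks and 43.6% over all gene starts. MED27 and MED16 had 27.7% each, MED30 and MED7 29.7% each and MED4 31.7%. The summits of MED15, of skd and of MED6 were above the median of promoter peaks.

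Of the 20 unbound Mediator genes, 17 had no weak peak either. This was also the more common case over all unbound coding genes, of which 7506 had none and 3063 had one. The list called on both replicates holds 30000 entries down to a signal of 16.2. It was deposited as peaks and background for the IDR comparison, so its weak entries may be background. A summit of this list lay within 1000 bp of a start at 12 of 29 members (41.4%), against 46.3% of all coding genes. In the list of replicate 2 alone the order was the other way, with 51.7% of members against 48.6%, and so it was among the stronger peaks of the list called on both, with 41.4% against 36.9%. Only 3 members (10.3%) had a weak peak without being bound, against 21.9% of coding genes. They were MED10, of the middle, with a signal of 52.6, MED31, also of the middle, with 52.3, and MED8, of the head, with 49.4. At MED10 replicate 2 had 40.9 at 16 bp from the start, and replicate 1 had only 16.6 at 337 bp. At MED31 replicate 1 had 41.0 at 105 bp, and replicate 2 had 17.0 at 67 bp and a stronger summit of 29.4 at 710 bp. At MED8 the replicates had 27.1 and 29.1. The weak peak of MED8 was thus the most even between replicates.

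Values just inside and outside the rule were far apart. The weakest optimal summit near a member start was the second one of skd, with 85.8, 308 bp inside the gene, and the strongest summit left out of the optimal set was another one of skd, with 54.8. By distance, the farthest strongest summit inside the window was that of MED15 at 603 bp, and the closest optimal summit to an unbound member was 3307 bp from MED10. The counts were therefore the same with a window of 2000 bp.

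17 members (58.6%) had no summit of the list called on both replicates near a start, against 53.7% of all coding genes. For 4 of them a replicate's own list had a weak one. Replicate 1 had 35.0 at MED24, which encodes the tail subunit needed in salivary glands, and replicate 2 had 32.8 at MED23, of the tail. Replicate 2 had 18.3 at MED19, a subunit known in flies to bind Hox proteins, and at MED25 the values were 19.7 in replicate 1 and 9.52 in replicate 2. MED25 was thus the only one of the 4 with a summit in both replicates.

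The remaining 13 had no summit near a start in any of the lists. Shares over all coding genes were not computed for these 13 or for the 4, so nothing particular to Mediator is read from them. They include MED14, the backbone subunit, and MED1, known in mammals as a partner of nuclear receptors. They also include kto, Cdk8 and CycC, so that in the kinase module only skd had a peak. Of the head they were MED11, MED18, MED20, MED22 and MED28, and of the middle also MED9, MED21 and MED26. MED26, known in mammals to recruit elongation factors, is the only member on arm 4, where 13.8% of coding genes were bound. MED21, on arm 3L, was 2236944 bp from the nearest optimal summit. Its nearest summit in the list called on both replicates was 5757 bp away. For the other 19 unbound members the distance to the nearest optimal summit ran from 3307 to 36297 bp. The median over the 20 was 7375 bp, beside 10632 bp over unbound coding genes.

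Summits of the optimal set inside Mediator gene bodies were found in skd and in MED6, where they are the 2 already described, which makes 2 of 29 genes (6.9%) against 14.9% of all coding genes. Mediator genes were also shorter, with a median length of 1330 bp against 2165 bp, and the part of length in that difference was not tested. The long gene skd (chr3L:20992814-21027434) held 2 further summits in introns, of 293 (rank 1082) and 101, at 16371 and 12556 bp from its nearest start. The stronger one exceeded both summits at the skd start. Several members had strong peaks nearby that lay more than 1000 bp from their starts. The share of all coding genes with such peaks was not computed. The strongest peak of the whole set, 3635 in an intron of ush, was 4885 bp beyond the end of MED15, within a stretch of 10000 bp to either side of MED15 that held 11 summits. The coding start nearest to that peak was one of cbt. MED28 and MED22 had peaks of 767 and 737 at 3718 and 7206 bp from their starts, closest to Vps33B and TRAM. A peak of 659 lay 2655 bp from MED6.

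Other parts of the transcription machinery were compared by the same rule. Of 12 genes for RNA polymerase II subunits 4 were bound (33.3%), of 32 genes for general transcription factors 7 (21.9%) and of 14 genes for Integrator, the complex that cleaves nascent RNA, 5 (35.7%). With 4, 7 and 5 bound genes beside the 24.3% of all coding genes, nothing particular to a list is read from these shares. The highest signals were at Polr2H (318), Polr2F (267), Polr2J (249) and Polr2B (235) among the polymerase genes. Among the general factors Ssl1, a TFIIH subunit gene that shares its peak with Chro, had 2063, and Taf4, TfIIA-S and Tfb4 had 385, 244 and 214. IntS9, IntS6, IntS11 and IntS10 had 422, 336, 314 and 249. Summits of the full list were found at 5 polymerase genes (41.7%), 17 genes of general factors (53.1%) and 8 Integrator genes (57.1%), beside 41.4% of Mediator genes and 46.3% of all coding genes.

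**Figure D4:**
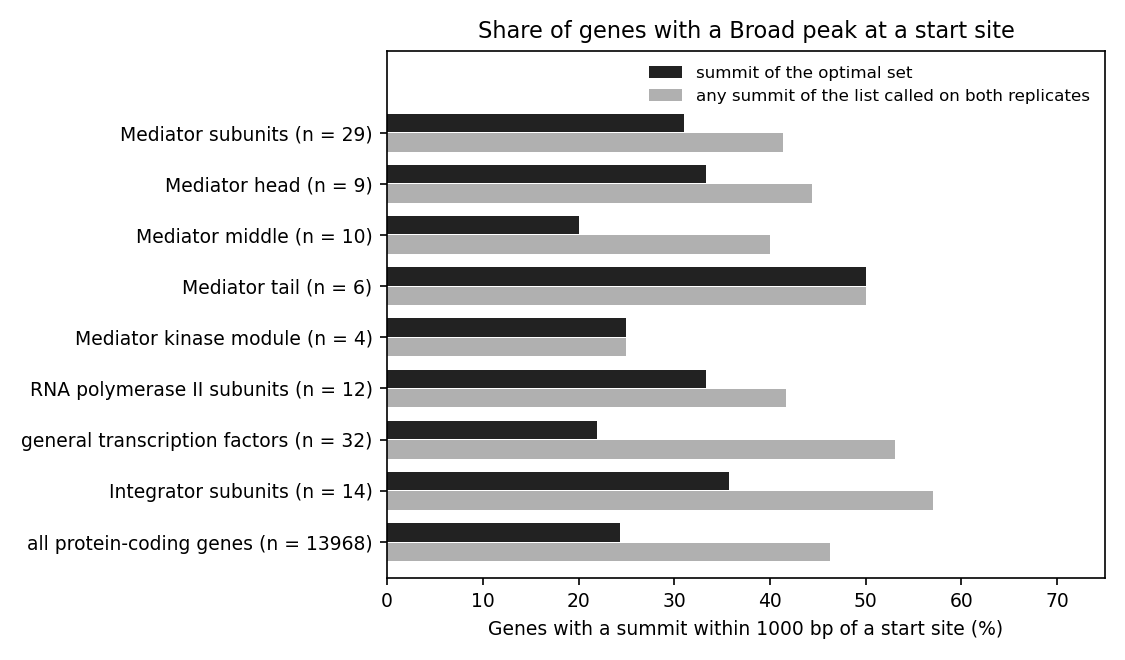
Share of genes in percent with a summit within 1000 bp of a start site, for the optimal set (black) and the whole list called on both replicates (grey), in Mediator, its modules, 3 other lists and all protein-coding genes. The black bar of Mediator stands at 31.0% and that of all coding genes at 24.3%; the modules hold 4 to 10 genes each.

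The gene ix encodes a further Mediator subunit, MED29, but its symbol leaves it outside the rule. It had no summit of the optimal set. Its strongest peak in the full list, 900 bp downstream of its start, had a signal of 79.0 and rank 6719, just under the lowest optimal signal of 80.0, with 19.7 in replicate 1 and 52.3 in replicate 2. That summit was nearest to the start of CG12384. With ix counted, 9 of 30 genes were bound.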

How the data were processed

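Peak lists on build dm6 were used: 1 per replicate, 1 called on both replicates, and the optimal set. The list called on both replicates was deposited as holding peaks and background. The signal value per peak is the authors' own, its scale not stated, and the −log10 q value, deposited beside it, has its highest value, 4.02 in the optimal set, in most peaks of that set and was not used for ranking. Each replicate list was made from that replicate's alignment and a control, as the deposited README files state. The sources used here name no aligner, peak caller or IDR cutoff. Fragments were 200 to 800 bp, per the labels. The 6635 optimal peaks were checked to be the strongest of the 30000 in the list called on both. The lists give no read counts, so depth is unknown.

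Start sites came from Ensembl release 115 (BDGP6.54) and sequence from RefSeq's copy of the same assembly. Summits were assigned with Python 3.11.15 and pandas 2.3.3, and the assignment was tested on simulated data. A gene was bound when an optimal summit lay within 1000 bp of any of its starts. Lists are described by counts beside the background, without a test, and neither genes nor peaks are replicates. Every member is named, with up to 4 bound genes with the highest signal from each other list. Older symbols were matched through RefSeq synonyms. Members, lists and sequences were chosen with earlier results of these data known. Lists on dm3 were not used.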

Additional observations from a re-analysis of the deposited data

How the results depend on the processing

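The count of 9 bound Mediator genes kept within 1.5 times under each alternative tried, but the lowest count, 6, was exactly at that limit. It was 8 with a window of 500 bp, which loses MED15, 9 with 2000 bp, 9 with the most upstream start only, 6 with each summit given to the nearest start (losing MED15, MED27 and MED30) and 8 among peaks above the median signal of the optimal set (losing skd). The list of replicate 1 or 2 alone gave 9 in both cases, and the same 9 genes. Backgrounds moved too, to 20.8%, 29.5%, 22.4%, 18.8% and 15.0% of coding genes under the first 5, and to 25.5% and 24.7% with replicate 1 or 2 alone. With 2000 bp it was thus 9 of 29 against 29.5%, and above the median signal 8 of 29 against 15.0%. How near the count lay to the background depended on the setting. Of 29 members, 12 had a weak or strong summit in the list called on both replicates, which is 41.4% against 46.3% of coding genes. The counts were 11 (37.9% against 41.1%) with 500 bp and 12 (41.4% against 54.0%) with 2000 bp. They were 14 (48.3% against 48.8%) in the list of replicate 1. Members were above the background with only the stronger peaks of the list called on both, at 12 (41.4% against 36.9%), and in the list of replicate 2, at 15 (51.7% against 48.6%), so the side of the background on which they fall depends on the list. The median signal of 184 was 206 with 500 bp, where MED15 drops out, 184 with 2000 bp and 177 with the nearest start. Matching replicate summits within 50, 100 or 200 bp gave 8, 8 and 9 matched members, and 5 summits were nearest to the member's own start with a window of 500 or 1000 bp. Of the signals of single genes that stayed bound, 30 values under other settings were unchanged and 2 moved. These were MED6, to 237 with the most upstream start, and skd, to 85.8 with the nearest start. Not counted here are the lost peaks, of MED15 with 500 bp and of MED15, MED27 and MED30 with the nearest start. No paired analysis was possible because there is 1 group. With no control list or read counts here, a gene without a peak may still be bound below the depth of the lists.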
